A study of Mus musculus with 10 samples.

Results

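Interferon response genes were read in the hippocampus of old mice kept on calorie restriction or on a control diet. The 9 listed genes were the transcription factors Irf7 and Irf1, the antiviral effectors Ifit1, Ifit2 and Ifit3, the ubiquitin-like modifier Isg15 and its protease Usp18, the secreted glycoprotein Lgals3bp and the membrane protein Bst2. Values were taken from every probe set, the array's set of short probes that reads a transcript, that the platform annotation assigns to only 1 of these genes. Bst2 had none and was dropped, which left 9 probe sets for 8 genes out of 12488 probe sets on the array. Hippocampal RNA came from 10 male C57BL/6 mice aged 30 months, 5 calorie restricted and 5 control, with 1 mouse on each array. The restriction is labelled long-term, and its degree and starting age were not in the labels used.

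Interferons are secreted when a cell senses viral or misplaced nucleic acid. Type I interferons signal through the receptors Ifnar1 and Ifnar2, the kinases Jak1 and Tyk2 and a complex with Irf9 that binds the interferon-stimulated response element in promoters, while interferon gamma acts on promoters through the gamma-activated site. Most genes described here are targets of this signalling, and Irf7 in turn raises type I interferon production. In the ageing mouse brain, interferon response genes are known to be expressed in choroid plexus and in a subset of microglia, the resident macrophages.

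Values are log2 signals of the deposited array intensities, on which a difference of 1 is a 2-fold difference. A probe set was tested where its mean log2 signal over all arrays was at least 6.85, the 40th percentile, and 7453 were. Among these, 883 or 11.8% passed at a limma Benjamini-Hochberg adjusted p under 0.05, and the median log2 change, calorie restricted minus control, was -0.15, moving with signal, at -0.42 in the dimmest of 5 equal classes of tested probe sets and 0.13 in the brightest. The groups did not overlap in 14.3% of the tested probe sets. RNA quality went with diet: the log2 ratio of 3′ to 5′ control probe sets of Gapdh and Actb ran from 0.78 to 6.11 in calorie restricted mice, highest in replicates 3 and 5, and from -0.12 to 0.45 in control mice (exact two-sided permutation p = 0.00794, the smallest that 252 splits can give). The signal of the bacterial spike-in control probe sets did not overlap either, at log2 12.4 to 13.7 in calorie restricted and 10.5 to 11.8 in control mice (exact two-sided permutation p = 0.00794). How far RNA quality and spike-in signal bear on each value given here cannot be told apart from diet. Neuronal markers were present but not alike: of 7 tested, 1 rose, 2 fell and 4 did not pass. The synaptic protein gene Snap25 had 13.97 to 14.61 in calorie restricted mice and 13.33 to 14.20 in control mice, while the synaptic vesicle gene Syt1 had 6.19 to 10.97 in calorie restricted mice and 12.24 to 12.64 in control mice (limma adjusted p = 0.0146).

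None of the interferon response genes passed the test for a difference between diets. Of the 6 probe sets bright enough to be tested, for Irf7, Irf1, Ifit3, Isg15 and Lgals3bp, 0 passed in limma, beside the 11.8% of all tested probe sets (4.11% higher and 7.74% lower). An unadjusted p under 0.05 was reached by 2 of the 6, beside 31.6% of all tested probe sets. The groups overlapped in all 9 probe sets, beside 14.3% of all tested probe sets in which they did not. That share was not taken among probe sets below the signal filter. The median log2 change of the 6 was -0.40, with 1 higher and 5 lower, beside -0.15 over all tested probe sets. Of the 6, 3 lay in the dimmest of the 5 signal classes, whose median was -0.42, and 2 in the next, whose median was -0.30. The median of the 6 was -0.008 under quantile normalization, with 3 higher and 3 lower. It was -0.04 with RNA quality as a covariate and -0.18 without calorie restricted replicate 5. Medians more negative than -0.40 came without control replicate 1 or 2 (-0.56 and -0.51). Calorie restricted replicates 1, 2 and 3 left out in turn gave -0.48, -0.49 and -0.48. Fitting the spike-in signal beside RNA quality gave 1.23, with 4 higher and 2 lower, where these measures explain diet with an R2 of 0.851. With the arrays centred on their medians, under quantile normalization, with RNA quality as a covariate and without calorie restricted replicates 3 and 5, 0 of the 6 passed in limma as well, beside 11.3%, 8.04%, 4.47% and 10.5% of all tested probe sets, with 1, 2, 0 and 1 at an unadjusted p under 0.05, beside 30.7%, 27.9%, 23.6% and 29.4% of all tested. Ifit1, Ifit2 and Usp18 lay below the signal filter. With no filter 0 of the 9 passed in limma and 3 had an unadjusted p under 0.05, beside 6.36% and 25.4% of all 12422 probe sets. In bulk tissue, fewer cells of a type and less RNA per cell cannot be told apart.

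**Figure D1:**
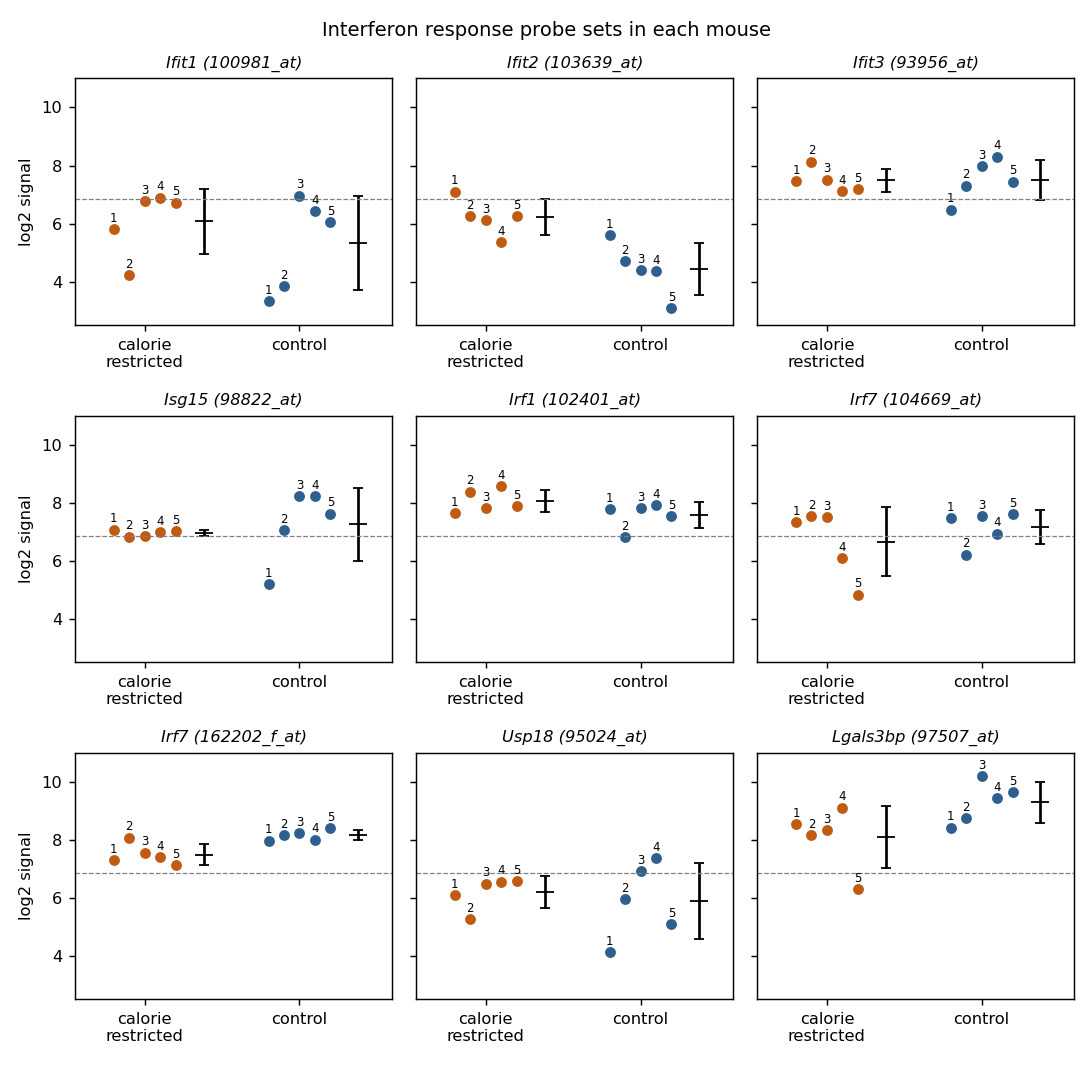
Log2 signal of each interferon response probe set in each mouse, with calorie restricted mice (orange) left of control mice (blue), the replicate number above each point, and the mean with its SD beside the points (n = 5 per diet). The dashed line is the lowest mean tested, 6.85. Isg15 lies within 6.83 to 7.07 in calorie restricted mice and spreads from 5.19 to 8.22 in control mice.

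**Figure D2:**
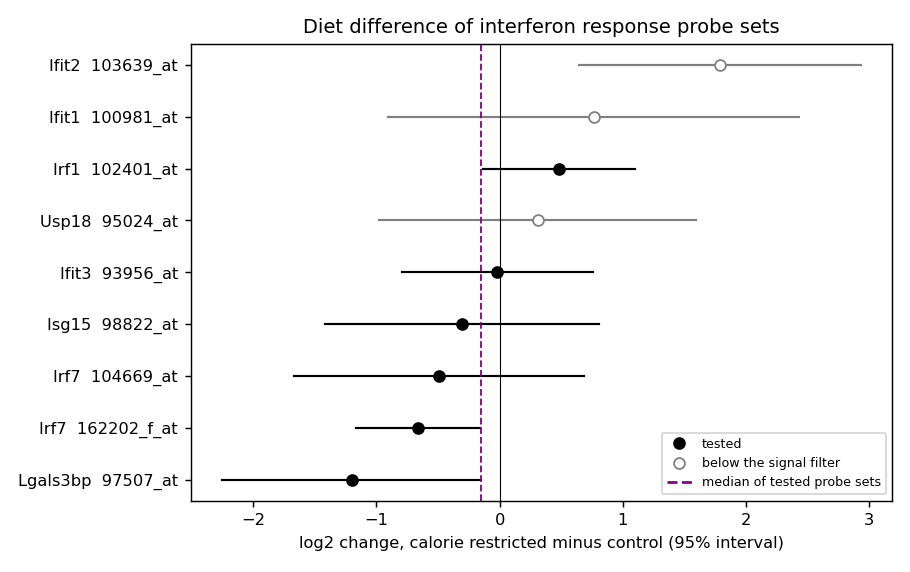
Log2 change of each probe set, calorie restricted minus control, with the 95% interval of the limma fit. Filled points were tested, open points lay below the signal filter and take their interval from the fit without a filter, and the dashed line marks -0.15, the median over the tested probe sets. The changes run from -1.20 for Lgals3bp to 1.79 for Ifit2.

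Irf7, which switches on type I interferon genes, was measured by a pair of probe sets that both averaged lower in calorie restricted mice. Probe set 162202_f_at had 7.31, 8.07, 7.56, 7.39 and 7.13 in calorie restricted replicates 1 to 5, against 7.97, 8.17, 8.23, 8.01 and 8.39 in control replicates 1 to 5. All calorie restricted mice but replicate 2 lay below every control mouse. The means were 7.49 ± 0.36 and 8.15 ± 0.17 (SD, n = 5 each), a log2 change of -0.66 ± 0.23 (SE), or -0.51 relative to the median of all tested probe sets, and it did not pass (limma adjusted p = 0.0797). Of 21 other settings at the same threshold, it passed only without calorie restricted replicate 2, at -0.81 (limma adjusted p = 0.0321). In that setting 1251 of all 7453 tested probe sets passed, the most of any setting that leaves out 1 array. The change of this probe set was -0.32 under quantile normalization and -0.45 with the arrays centred on their medians (limma adjusted p = 0.351 and 0.197). The f in its identifier marks probes that can match several transcripts.

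The other probe set of Irf7, 104669_at, was not set apart by diet in most mice. It had 7.33, 7.54, 7.51, 6.09 and 4.83 in calorie restricted replicates 1 to 5, against 7.47, 6.21, 7.53, 6.93 and 7.61 in control replicates 1 to 5. Calorie restricted replicates 1, 2 and 3 lay inside the control range and replicates 4 and 5 below it. The log2 change was -0.49 ± 0.54 (SE; 95% interval -1.67 to 0.68; limma adjusted p = 0.553) and -0.03 without calorie restricted replicate 5, the array with the highest 3′ to 5′ ratio. With RNA quality as a covariate the change was 0.16, of the opposite sign.

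Irf1, a factor that interferon gamma induces and that acts on genes of antigen presentation, averaged slightly higher in calorie restricted mice. Its signals were 7.64, 8.38, 7.81, 8.56 and 7.88 in calorie restricted replicates 1 to 5, against 7.79, 6.81, 7.81, 7.92 and 7.55 in control replicates 1 to 5. Calorie restricted replicates 2 and 4 lay above every control mouse, and control replicate 2 was the lowest of all. The log2 change was 0.48 ± 0.28 (SE; 95% interval -0.13 to 1.09), or 0.63 relative to the median, and did not pass (limma adjusted p = 0.263). It was positive in all 21 other settings, from 0.29 to 1.38, and passed in none of them, with the smallest limma adjusted p, 0.0917, under quantile normalization. The filters, variance model and replicate block leave the change itself at 0.48, and settings without 1 array share the rest. The shared sign therefore does not come from independent looks.

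The Ifit genes encode cytoplasmic proteins that bind foreign RNA and block its translation. Ifit2 had the largest difference of the 9 probe sets, though it lay in the dim part of the array. Its signals were 7.10, 6.27, 6.12, 5.36 and 6.26 in calorie restricted replicates 1 to 5, against 5.61, 4.70, 4.41, 4.35 and 3.08 in control replicates 1 to 5. Every calorie restricted mouse but replicate 4 lay above every control mouse. Only calorie restricted replicate 1 reached 6.85, the lowest mean tested. In the fit without a filter the log2 change was 1.79 ± 0.53 (SE; 95% interval 0.65 to 2.93), a 3.45-fold higher signal, with an unadjusted p of 0.00483 and a limma adjusted p of 0.0608, which does not pass. Detection calls and background were not analysed here, so the size of a difference at such signals is uncertain.

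Ifit3, whose human counterpart stabilises IFIT1 on RNA, had means in both diets that differed by less than their error. It had 7.47, 8.14, 7.51, 7.11 and 7.19 in calorie restricted replicates 1 to 5, against 6.48, 7.31, 7.98, 8.31 and 7.45 in control replicates 1 to 5. All calorie restricted mice lay inside the control range. The log2 change was -0.02 ± 0.36 (SE), with a 95% interval of -0.79 to 0.75 that covers a change of either sign (limma adjusted p = 0.976). Under quantile normalization it was 0.35.

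Ifit1, which binds viral RNA that lacks cap methylation, was dim and scattered in both diets. Its signals ran from 4.23 to 6.89, with a median of 6.72, in calorie restricted mice and from 3.33 to 6.96, with a median of 6.04, in control mice. Without a filter the log2 change was 0.76 ± 0.77 (SE; limma adjusted p = 0.570). Whether the 3 Ifit probe sets differ in their change was not tested.

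Isg15 is conjugated to newly made proteins in interferon-treated cells and is also secreted. Its signals were 7.07, 6.83, 6.84, 6.99 and 7.03 in calorie restricted replicates 1 to 5, against 5.19, 7.04, 8.21, 8.22 and 7.62 in control replicates 1 to 5. The calorie restricted mice were nearly alike, while control mice lay on both sides of them. The means, 6.95 ± 0.11 and 7.26 ± 1.26 (SD, n = 5 each), differed by -0.31 ± 0.51 (SE; limma adjusted p = 0.704), and the change went to -0.82 without control replicate 1 and to -0.07 without control replicate 3 or 4. Under quantile normalization it was 0.05.

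Usp18 removes Isg15 from proteins and damps signalling at the type I interferon receptor. Its signals ran from 5.27 to 6.57, with a median of 6.49, in calorie restricted mice and from 4.13 to 7.36, with a median of 5.95, in control mice, all calorie restricted mice inside the control range. Without a filter its log2 change was 0.31 ± 0.60 (SE; limma adjusted p = 0.784). Among the enzymes that attach Isg15, Uba7, the activating enzyme, had 7.98 ± 0.34 in calorie restricted mice and 8.45 ± 0.46 in control mice (SD, n = 5 each) and did not pass (limma adjusted p = 0.234). Ube2l6, the conjugating enzyme, averaged 6.88 and 6.24 in these diets and lay below the signal filter.

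Lgals3bp, a secreted glycoprotein that binds galectins and is induced by interferons, was lower on average in calorie restricted mice. Its signals were 8.54, 8.17, 8.32, 9.11 and 6.31 in calorie restricted replicates 1 to 5, against 8.42, 8.75, 10.20, 9.44 and 9.65 in control replicates 1 to 5. Calorie restricted replicates 2, 3 and 5 lay below every control mouse, and replicates 1 and 4 inside the control range. The means were 8.09 ± 1.06 and 9.29 ± 0.71 (SD, n = 5 each), a log2 change of -1.20 ± 0.48 (SE) or -1.05 relative to the median, equal to 2.30-fold lower signal before the median is taken off. It did not pass (unadjusted p = 0.0283; limma adjusted p = 0.114). The change was -0.75 without calorie restricted replicate 5 and -0.68 without replicates 3 and 5 (limma adjusted p = 0.161 and 0.250), and it did not pass in any of 21 other settings. It was -0.38 with RNA quality as a covariate and 1.74 ± 0.75 (SE; limma adjusted p = 0.381) with both RNA quality and the spike-in signal in the fit, which explain diet with an R2 of 0.851.

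The spread between mice differed among these genes, and this was seen in the values rather than planned, so it carries no test. The SD of log2 signal in control mice was 11.3 times that in calorie restricted mice for Isg15, a ratio reached by 2 of the 7453 tested probe sets, this one among them. It was 2.39 for Usp18, 1.74 for Ifit3, 1.47 for Ifit2, 1.45 for Ifit1 and 1.14 for Irf1, while Lgals3bp had 0.674 and the Irf7 probe sets had 0.498 and 0.474. The control SD was thus the larger in 6 of the 9 probe sets. Among the 6 tested it was the larger in 3, against 1789 of the 7453 tested probe sets, whose median ratio was 0.607. Usp18, Ifit2 and Ifit1 lay below the signal filter, and the share among such dim probe sets was not taken.

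The place of each animal within its diet varied between these genes. Control replicate 3 was among the 2 highest control mice in 8 of the 9 probe sets, and control replicate 1 was the lowest in 6. Control replicate 4 was the highest in 4, for Isg15, Ifit3, Usp18 and Irf1, and among the 2 lowest in 3, for Ifit2 and both Irf7 probe sets. Ifit2 ran the other way, with control replicate 1 the highest. Calorie restricted replicate 5, with the highest 3′ to 5′ log2 ratio, 6.11, was above the mean of its diet in 1 of the 6 tested probe sets and had a mean deviation of -0.73, the farthest from 0 of the 10 arrays. These probe sets share the same RNA and array in each mouse, and control replicates 3 and 4 also had the lowest 3′ to 5′ log2 ratios, -0.12 and -0.07, although the ratios of the control mice span a narrow range; the part of RNA quality in this order was not tested.

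**Figure D3:**
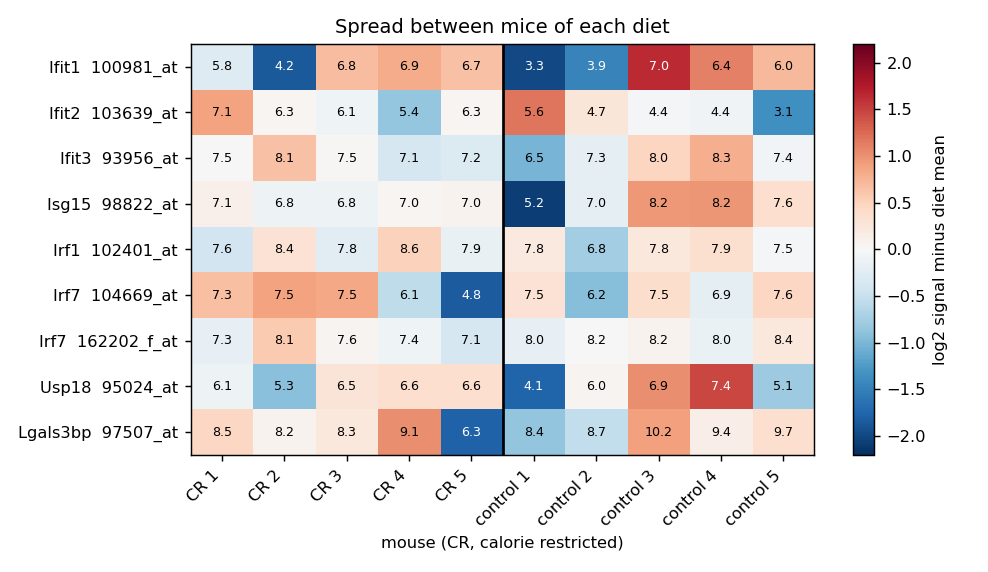
Signal of each interferon response probe set in each mouse. Colours give the log2 signal minus the mean of that diet for the probe set and the printed values give the log2 signal, with calorie restricted mice (CR) left of control mice. Control replicate 1 is at 5.2 for Isg15 and control replicates 3 and 4 at 8.2, while calorie restricted mice have 6.8 to 7.1.

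Whether any pair of the 6 tested probe sets rose and fell together between mice was examined on the deviations from each diet's mean over all 10 arrays, in 15 pairs. Ifit3 and Isg15 had the highest Pearson r, 0.80 (exact permutation within diets p = 0.0237, adjusted p = 0.355 over 15 pairs), with a Spearman rho of 0.53 (exact permutation p = 0.188, adjusted p = 0.581). Without control replicates 1 and 4, the arrays farthest from the median of Ifit3, r was 0.34. Leaving out extreme arrays narrows the range of Ifit3, so the lower r cannot show whether the relation rests on them. The r of both Irf7 probe sets was 0.60 (exact permutation p = 0.158, adjusted p = 0.474; rho 0.56, exact permutation p = 0.152, adjusted p = 0.581), and 0.52 without calorie restricted replicate 5 and control replicate 2. No pair passed after adjustment.

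The promoters of Isg15, Ifit3 and Ifit1 are shown because they hold letters that match the interferon-stimulated response element, and that of Lgals3bp because its mean differed most among the tested probe sets. They run from 250 bases before to 50 bases after the RefSeq start in GRCm38.p6, and capitals mark matches to the core of this element, GAAA, any 2 bases and GAAA, read on both strands and with overlapping matches kept. Isg15 is on the minus strand at chr4:156200769-156201068, Ifit3 on the plus strand at chr19:34583279-34583578, Ifit1 on the plus strand at chr19:34640639-34640938 and Lgals3bp on the minus strand at chr11:118401910-118402209.
Isg15: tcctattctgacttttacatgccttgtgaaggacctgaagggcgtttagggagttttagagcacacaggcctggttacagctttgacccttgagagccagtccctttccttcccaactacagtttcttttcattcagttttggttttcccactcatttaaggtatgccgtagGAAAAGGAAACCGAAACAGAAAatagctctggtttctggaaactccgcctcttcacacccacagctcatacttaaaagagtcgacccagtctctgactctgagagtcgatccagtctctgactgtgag
Ifit3: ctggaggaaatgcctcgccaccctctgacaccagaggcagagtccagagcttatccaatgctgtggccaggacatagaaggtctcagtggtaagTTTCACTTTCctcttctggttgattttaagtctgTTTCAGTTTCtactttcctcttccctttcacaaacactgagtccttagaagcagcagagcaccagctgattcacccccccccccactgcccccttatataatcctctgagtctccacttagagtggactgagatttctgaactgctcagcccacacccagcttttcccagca
Ifit1: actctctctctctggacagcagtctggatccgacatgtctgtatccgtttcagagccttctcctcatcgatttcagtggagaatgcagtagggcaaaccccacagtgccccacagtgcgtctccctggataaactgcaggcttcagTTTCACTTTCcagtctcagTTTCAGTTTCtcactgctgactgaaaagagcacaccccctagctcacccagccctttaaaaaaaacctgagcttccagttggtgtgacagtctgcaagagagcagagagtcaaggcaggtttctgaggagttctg
Lgals3bp: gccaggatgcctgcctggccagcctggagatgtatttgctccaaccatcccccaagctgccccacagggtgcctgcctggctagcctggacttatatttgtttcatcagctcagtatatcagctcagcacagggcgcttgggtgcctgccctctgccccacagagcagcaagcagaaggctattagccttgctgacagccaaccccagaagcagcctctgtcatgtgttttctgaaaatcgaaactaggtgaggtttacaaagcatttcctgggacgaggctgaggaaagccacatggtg
Isg15 holds 3 overlapping matches from 78 to 57 bases before the start. Ifit3 holds 2, of which the nearer spans 122 to 113 bases before it, and Ifit1 holds 2, of which the nearer spans 85 to 76 bases before it. This core was found in 3.44% of 32851 such promoters, and in those of 3 of the 7 measured genes that matched by symbol. Irf1 and Ifit2 have 2 annotated starts each, and all 9 promoters were searched. The promoters of Ifit2, Irf1, Irf7 and Lgals3bp do not hold these letters in the window. The core of the gamma-activated site, TTC, any 3 bases and GAA, was found in 8.30% of all promoters and, among the measured genes, in 1 promoter each of Irf1, from 90 to 82 bases before its start, and of Ifit2, from 241 to 233 bases before it. These are matches of letters and do not show binding.

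The rest of the interferon pathway was followed in 7 lists of 116 genes, of which 82 had a probe set and 42 a tested one. Of these 42, 3 or 7.14% passed, beside 11.8% of all tested probe sets: 1 rose, 2 fell and 39 did not pass. An unadjusted p under 0.05 was reached by 12 of the 42, beside 31.6% of all tested. Their median log2 change was -0.19, beside -0.15 over all tested probe sets, and 29 of the 42 had a negative change, beside 60.6% of all tested. The gene that rose was Psme1, a subunit of the interferon-inducible activator of the proteasome. Those that fell were Tapbp, which loads peptide onto MHC class I, and Ifna5, a type I interferon. The counts by list below stand beside the same 11.8% and 31.6% of all tested probe sets.

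**Figure D4:**
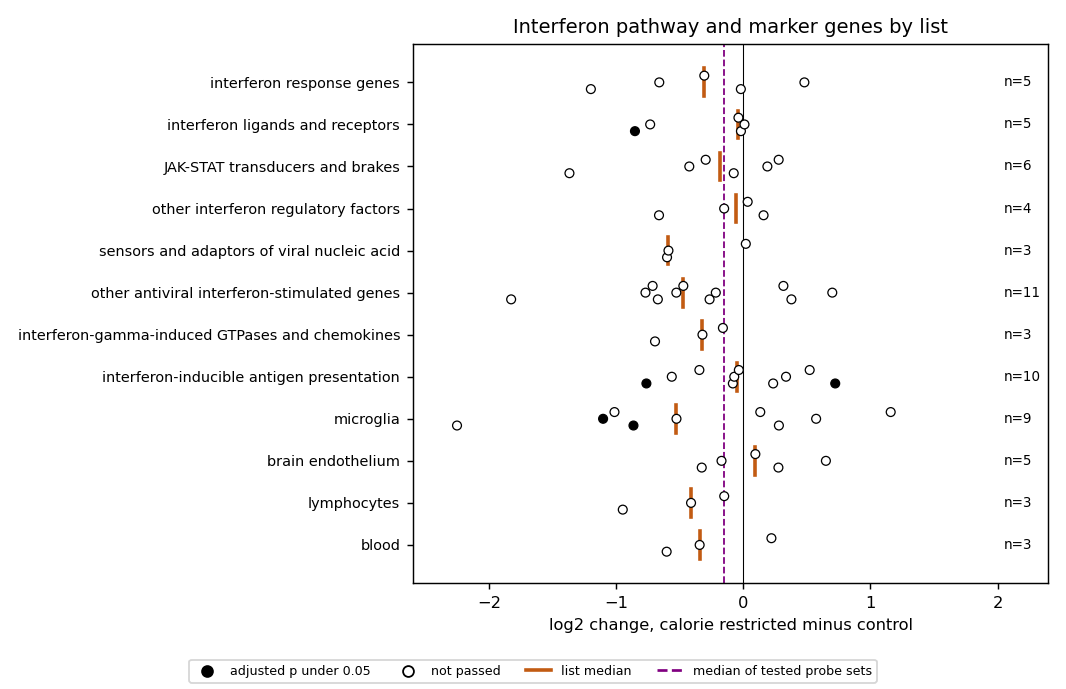
Log2 change, calorie restricted minus control, of each tested gene in the interferon pathway lists and in the marker lists, with filled points for genes that passed at an adjusted p under 0.05, orange bars for list medians and a dashed line for the median of all tested probe sets. Filled points stand for Ifna5, Tapbp and Psme1 in the pathway lists and for Cx3cr1 and Cd68 among microglial markers.

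Among ligands and receptors, 0 rose, 1 fell and 4 did not pass. Ifna5 had 8.09 ± 0.36 in calorie restricted mice and 8.95 ± 0.33 in control mice (SD, n = 5 each), a log2 change of -0.85 ± 0.23 (SE; limma adjusted p = 0.0377). Its probe set can match several of the closely related interferon alpha genes, and the call was lost in 14 of 21 other settings, such as without calorie restricted replicates 3 and 5, at -0.64 (limma adjusted p = 0.0922). The receptor chains Ifnar1 and Ifnar2, which form the type I receptor, had changes of -0.02 ± 0.25 and 0.01 ± 0.33 (SE; limma adjusted p = 0.967 and 0.989). Another probe set of Ifnar2, below the signal filter, averaged 6.40 in calorie restricted mice and 4.85 in control mice. Ifngr2, a chain of the interferon gamma receptor, had 7.57 ± 0.40 and 8.30 ± 0.31 (SD) in calorie restricted and control mice (limma adjusted p = 0.0766). Ifnb1 and Ifng, the genes of interferon beta and gamma, lay below the signal filter.

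Of 6 transducers and brakes of JAK-STAT signalling, limma called 0, and 1 had an unadjusted p under 0.05. That was Socs1, an inhibitor of the JAK kinases that interferons induce, at 5.36 to 7.75 in calorie restricted mice and 7.19 to 8.78 in control mice (log2 change -1.37 ± 0.49 SE; limma adjusted p = 0.0839). Jak1, the kinase shared by both receptor types, had a change of -0.08 ± 0.15 (SE), one of the more precise values here, with a limma adjusted p of 0.747. Of 4 other interferon regulatory factors, 0 passed in limma and 1, Irf5, had an unadjusted p under 0.05. Irf5, a factor of myeloid cells, had 7.32 to 8.25 in calorie restricted mice and 8.27 to 8.63 in control mice, without overlap, and a log2 change of -0.66 ± 0.22 (SE; limma adjusted p = 0.0644). Irf9, the DNA-binding part of the type I complex, had 0.03 ± 0.29 (SE; limma adjusted p = 0.949).

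Sensors and antiviral effectors gave no calls. Of 3 tested sensors and adaptors limma called 0, and 0 had an unadjusted p under 0.05, and Ifih1, a cytoplasmic sensor of double-stranded RNA, had -0.60 ± 0.51 (SE; limma adjusted p = 0.437). Of 11 other antiviral interferon-stimulated genes limma called 0, and 4 had an unadjusted p under 0.05. Adar, an RNA-editing enzyme, had 6.74 ± 1.14 in calorie restricted mice and 8.57 ± 1.09 in control mice (SD, n = 5 each; limma adjusted p = 0.0645), Pml, of nuclear bodies, had 8.57 ± 0.28 and 9.24 ± 0.35 (limma adjusted p = 0.0621), and Ly6e, a surface protein, had 13.51 ± 0.51 and 12.81 ± 0.23 (limma adjusted p = 0.0697), in a probe set that can match several transcripts, while its other tested probe set changed by -0.06. Of 3 GTPase and chemokine genes of the interferon gamma response limma called 0, and 1, the MHC class II activator Ciita, had an unadjusted p under 0.05. Mx1, Rsad2, Cxcl10 and Oas1g, well-known interferon targets, lay below the signal filter.

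Of 10 antigen presentation genes, 1 rose, 1 fell and 8 did not pass. Psme1 had 9.80 ± 0.29 in calorie restricted mice and 9.08 ± 0.29 in control mice (SD, n = 5 each), without overlap, a 1.65-fold higher signal (limma adjusted p = 0.0386). Another probe set of Psme1, below the filter, averaged 4.13 and 4.91 in these diets. Tapbp had 8.72 ± 0.18 and 9.48 ± 0.29 in calorie restricted and control mice, also without overlap (limma adjusted p = 0.0255), in a probe set that can match several transcripts; its other probe sets changed by 0.02 and -0.69 and did not pass. The calls of Psme1 and of Tapbp were each lost in 11 of 21 other settings, with changes from 0.49 to 0.95 for Psme1 and from -0.89 to -0.55 for Tapbp. B2m, the light chain of MHC class I, had 0.23 ± 0.30 (SE; limma adjusted p = 0.608).

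Markers of cells that respond to interferon were read on the same arrays, and their part in the values above was not tested. Of 9 microglial markers 0 rose, 2 fell and 7 did not pass: Cx3cr1, the fractalkine receptor, had 8.59 ± 0.23 in calorie restricted mice and 9.69 ± 0.42 in control mice, and Cd68, a lysosomal protein, had 8.15 ± 0.28 and 9.01 ± 0.23 (SD, n = 5 each; limma adjusted p = 0.0145 and 0.0217). The calls were lost in 2 of 21 other settings for Cx3cr1 and in 7 for Cd68. Other cell types had calls as well: 3 of 8 astrocyte, 3 of 7 oligodendrocyte and 1 of 9 pericyte and meningeal markers fell. Of all tested probe sets, 4.11% passed as higher and 7.74% as lower, and 31.6% had an unadjusted p under 0.05 in limma. The summed intensity of the 9 microglial markers ran from 9062 to 12144 in calorie restricted mice and from 10249 to 14161 in control mice. Aif1, another microglial gene, had 7.65 ± 0.14 and 6.49 ± 0.71, without overlap and in the other direction (limma adjusted p = 0.0520). Of 5 endothelial, 3 lymphocyte and 3 blood genes limma called 0, and 0 had an unadjusted p under 0.05; the T cell genes Cd3g, Cd3e and Cd8a lay below the signal filter. Of 5 choroid plexus and ependymal genes 2 fell, Folr1 and Foxj1, calls that were lost in 6 and 15 of 21 other settings, with summed intensities of 1216 to 15733 in calorie restricted mice and 3568 to 12028 in control mice.

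The genes whose deviations from the diet means were most like those of the 6 tested interferon response probe sets, by the mean of 6 Pearson correlations over 10 arrays, were Wwc2, Ssc4d, Unc45a, Emd and Tarbp2, with means of 0.642, 0.639, 0.622, 0.615 and 0.614. They are the highest of 6729 candidates, and none of them passed the test for diet.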

How the data were processed

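The authors deposited intensity values made with MAS5, a program named in the submitters' processing notes; which version and settings it ran with was not in the sources used. The deposited intensities had a trimmed mean, without the outer 2% at either end, of 500 on every array. From them, values under 1 (41 of 124880) were set to 1, log2 was taken, 66 control probe sets were set aside, and probe sets below the 40th percentile of mean log2 signal among the other 12422 were left out. Diets were compared in limma 3.58.1 (R 4.3.3) with a variance trend and no other term; p-values test the change before the median change is taken off. The fit was tested on simulated data. Labels call the mice biological replicates, and the 10 arrays limit precision. The members and lists were chosen with earlier results of these data known. Named are all members, list genes that passed, the 3 with the smallest p of each pathway list and the 5 most alike; of these the text names those that its groups turn on, and other genes it names were picked after their values were seen. Alternatives changed the normalization, filter, offset, variance model, weights, covariates, replicate block, threshold, probe sets per gene and arrays. Genes were named through the annotation of the array platform, in which 10833 probe sets have 1 symbol, 396 have several and 1193 have none. Usp18 has no entry in the promoter table used.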

Additional observations from a re-analysis of the deposited data

Results flagged for a closer look

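A single mouse lay far from the other 4 of its diet in 3 of 62 groups of 5 values looked at, by Dixon's gap over range with a critical value of 0.71; chance flags about 5% of groups. Ifih1 had 4.80 in calorie restricted replicate 2, against 6.87 to 7.44 in the other calorie restricted mice, a ratio of 0.784. Adar had 6.64 in control replicate 5, against 8.82 to 9.16 in the other control mice, a ratio of 0.863. Gbp3, a guanylate-binding protein gene, had 8.70 in control replicate 3, against 7.52 to 7.84 in the other control mice, a ratio of 0.732. None of the 9 interferon response probe sets was among these.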

How the results depend on the processing

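The count of 0 of 6 tested interferon response probe sets held in limma under the other normalizations, RNA quality as a covariate, weights and the replicate block. Under the other filters it was 0 of 9. With both RNA quality and spike-in signal in the fit, 0 of 7453 passed, so 0 of 6 there says nothing about these genes. Leaving out 1 array gave 0 to 1. The 1 was Irf7 162202_f_at without calorie restricted replicate 2, where 1251 of 7453 passed. At an adjusted p under 0.10 the count was 1, the same probe set. Over all tested probe sets 883 passed, 333 with RNA quality as a covariate, 540 with the replicate block, 1627 at an adjusted p under 0.10 and 253 to 1251 without 1 array: 349 and 561 without calorie restricted replicates 3 and 4, and 421, 253, 274, 301 and 553 without control replicates 1 to 5. With both array measures, RNA quality and spike-in signal, in the fit limma called 0 of 7453, with 907 at an unadjusted p under 0.05; together they explain diet with an R2 of 0.851. There the changes were 2.33 for Isg15, 1.74 for Lgals3bp and 1.09 for Ifit3, all of the opposite sign (limma adjusted p from 0.381 to 0.672), against -0.31, -1.20 and -0.02. Ifit3 also had the opposite sign under quantile normalization (0.35), median centring (0.20), array weights (0.092), RNA quality (0.20), without calorie restricted replicates 3 and 5 (0.069), 4 (0.073) or 5 (0.054), and without control replicates 3 (0.099) or 4 (0.18), and ran from -0.28 to 0.18 over the settings that leave out 1 array. Isg15 had 0.052 under quantile normalization and Irf7 104669_at 0.16 with RNA quality. The causes were not tested. The log2 difference of RNA quality between diets was 1.92 to 3.25 without 1 array, against 2.73, and its exact permutation p was 0.0556 to 0.0635 without control replicates 1, 2, 3 or 4. In those settings the diets still did not overlap in RNA quality, and the difference was 2.66 to 2.76. Same-numbered mice of both diets had correlations of deviations from -0.08 to 0.17, so the replicate numbers were not taken as pairs. Under the other settings, 267 comparisons of single probe sets and list medians kept their direction and side of the threshold or moved by less than 1 SD, while 3 list medians moved further, all with both array measures in the fit (0.20 for other antiviral genes, 0.25 for GTPases and chemokines and 0.90 for antigen presentation). The filters, variance model and replicate block cannot move the change of a single probe set, so these comparisons are not independent. Ifit1, Ifit2 and Usp18 were measured under 2 filters only, at signals where background is not known.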
